A study of Mus musculus with 2 samples.

Results

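Oxidative phosphorylation genes were taken as the 98 of 32285 genes in the deposited tables whose symbols mark subunits of the respiratory complexes: the families Ndufa, Ndufb, Ndufc, Ndufs and Ndufv of complex I, Sdha to Sdhd of complex II, Uqcr of complex III, Cox4 to Cox8 of complex IV, Atp5 of complex V, and the mitochondrially encoded mt-Nd, mt-Co, mt-Atp and mt-Cytb. Of these, 85 are encoded in the nucleus and 13 in the mitochondrial genome. The rule reads gene symbols and uses no measured value, but the set was proposed with earlier results of these data known. Their levels were compared with those of 81 ribosomal protein genes, whose messages are translated in the cytosol and which served as a measure of cytoplasm carried over with isolated nuclei.

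The data were single-nucleus RNA-seq counts from frozen kidney, with 1 library from sham-operated and 1 from nephrectomized male T1+/+ mice, 11 weeks old at surgery and sampled 4 weeks afterwards. In the 5/6 nephrectomy the right kidney was taken out and, a week later, both poles of the left kidney were tied off. Sham mice had both flanks opened and closed. Neither the strain behind the T1+/+ label, the number of mice per library nor the part of the remnant kidney sampled is given in the sources used here. With 1 library per group no difference below has a replicate check, no test between the groups was possible, and the 95% intervals given cover nothing beyond counting error.

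Oxidative phosphorylation couples the transfer of electrons from NADH and succinate to oxygen with the pumping of protons across the inner mitochondrial membrane, and complex V uses the resulting gradient to make ATP. Complex II is built from nuclear-encoded subunits only, whereas complexes I, III, IV and V combine products of both genomes. The reabsorbing segments of the kidney tubule, above all the proximal tubule and the thick ascending limb, are rich in mitochondria and depend on this pathway to drive sodium transport. Mitochondrially encoded messages stay inside the organelle, so in isolated nuclei they come from mitochondria that remain attached or from free RNA.

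The sham library held 3084 barcodes with 21365116 unique molecular identifiers (UMIs, each standing for 1 captured RNA molecule) and a median of 5140 per barcode, and the nephrectomy library 3299 barcodes with 28284727 UMIs and a median of 6844. After filtering and doublet removal 2867 and 3077 nuclei were kept, and 2 barcodes occurred in both libraries. Clusters were called like a cell type from marker genes, and 10 classes held at least 30 nuclei in each library. Proximal tubule-like nuclei were the main class, with 978 sham and 1095 nephrectomy nuclei, and the unnamed clusters, most of low depth, held 632 and 509. Levels are UMIs per 1000000 UMIs of a class (counts per 1000000, CPM), so a lower share of these genes and a higher share of all others cannot be told apart. UMIs of Kap, an abundant androgen-regulated gene of the proximal tubule, were found in every class, which is a sign of free RNA. Kap was at 3162 CPM in sham and 592 CPM in nephrectomy thick ascending limb-like nuclei, against 5831 and 1090 CPM in proximal tubule-like nuclei. The part of free RNA in the results on other classes was not tested.

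Over whole libraries, both sets of genes took a smaller share of the RNA after nephrectomy. The 85 nuclear-encoded members together were at 10263 CPM in sham and 7571 CPM in nephrectomy, a ratio of 0.738 (0.733 to 0.742). The 13 mitochondrially encoded members were at 12829 and 9362 CPM, a ratio of 0.730 (0.726 to 0.734). Ribosomal protein genes were lower as well, at 8774 and 7138 CPM (ratio 0.814, 0.808 to 0.819), so that nuclear-encoded members relative to ribosomal protein genes were at 0.907 of the sham value (0.899 to 0.915, approximate interval). Counting only genes with 20 or more UMIs in the sum of both libraries as measured, 82 nuclear-encoded members remained, of which 30 were at least 1.5 times lower in nephrectomy and 0 at least 1.5 times higher, where 10.5% of all 17440 genes measured were that much lower and 9.75% that much higher. The median log2 ratio of these members was −0.43, against 0.03 over all genes. Among members with at least 100 UMIs, Ndufb10 of complex I had the lowest ratio, 0.506 (0.470 to 0.545), and the muscle isoform Cox7a1 the highest, 1.46 (1.12 to 1.91).

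The proximal tubule recovers the bulk of filtered salt, glucose and amino acids. In its nuclei, named like the others from markers, nuclear-encoded members were at 8669 CPM in sham and 6837 CPM in nephrectomy, a ratio of 0.789 (0.781 to 0.796). Mitochondrially encoded members were at 9802 and 7631 CPM, a ratio of 0.779 (0.772 to 0.785). The ribosomal protein genes of the same nuclei were at 7732 and 6642 CPM, a ratio of 0.859 (0.851 to 0.867). Relative to them, nuclear-encoded members were at 0.918 of the sham value (0.906 to 0.930) and mitochondrially encoded members at 0.906 (0.895 to 0.918). Over the whole class both sets were therefore lower by more than the ribosomal protein genes, by a small margin that exceeds counting error, although for mitochondrially encoded members single clusters went both ways. A list of 14 other genes of cytosolic translation did not differ from the ribosomal protein genes beyond counting error (relative value 0.998, 0.976 to 1.02).

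Of the 85 nuclear-encoded members, 80 were measured in proximal tubule-like nuclei, 68 of them had a ratio below 1, and their median log2 ratio was −0.36, against 0.02 over the 14489 genes measured. At least 1.5 times lower in nephrectomy were 16 members, a share of the 80 to be read against 11.5% of all genes, and 2 were at least 1.5 times higher, against 10.8% of all genes. Of 78 ribosomal protein genes, 8 were that much lower and 4 that much higher, with a median of −0.30. The count of 16 depended on which nuclei were compared and how they were weighted. It was 5 when the 5 clusters with at least 50 nuclei of each library had equal weight (724 sham and 1094 nephrectomy nuclei), which left out a cluster with 254 sham nuclei and 1 nephrectomy nucleus, and 25 when 2 low-depth unnamed clusters were added. The share of all genes was not computed for these alternatives, so the 11.5% does not apply to them. Whether members were lower more often than other genes over the shared clusters is thus not known.

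**Figure D1:**
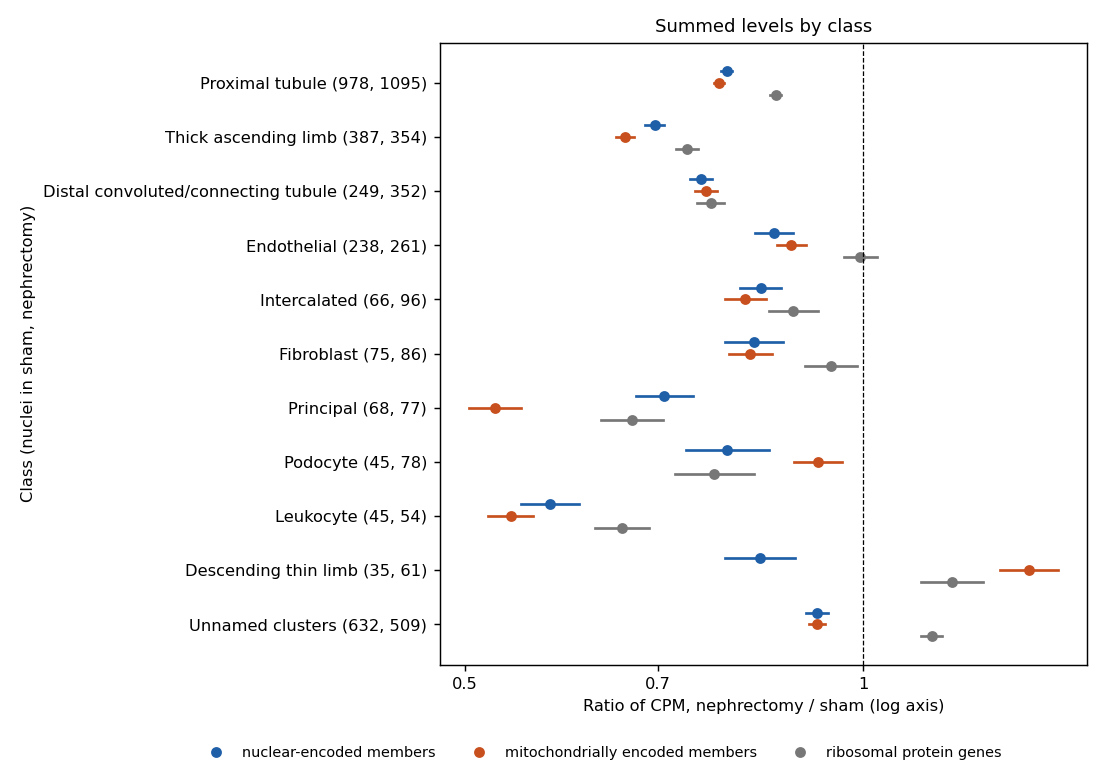
Ratio of CPM in nephrectomy to sham (log axis) for the summed nuclear-encoded members, mitochondrially encoded members and ribosomal protein genes in each class, with 95% counting intervals as bars and nuclei per library in parentheses. Nuclear-encoded members lie below 1 in every class drawn, from 0.580 in leukocyte-like nuclei to 0.923 in the unnamed clusters, while mitochondrially encoded members lie above 1 in descending thin limb-like nuclei only.

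Complex I, which takes electrons from NADH, was lower as a whole with single subunits on both sides of 1. Its nuclear-encoded subunits together were at 2994 CPM in sham and 2249 CPM in nephrectomy proximal tubule-like nuclei, a ratio of 0.751 (0.739 to 0.763). Of 37 measured subunits 10 were at least 1.5 times lower and 0 at least 1.5 times higher, against 11.5% and 10.8% of all genes, and the median log2 ratio was −0.42. Ndufb10, an accessory subunit of the membrane arm, was at 77.7 CPM (838 UMIs) in sham and 38.6 CPM (506 UMIs) in nephrectomy, a ratio of 0.497 (0.444 to 0.555). Ndufb9, another membrane-arm subunit, was at 125 and 67.7 CPM (ratio 0.543, 0.499 to 0.592). Ndufa4, grouped here by its symbol although it is now known as a subunit of complex IV, was at 294 and 165 CPM (0.561, 0.531 to 0.593). At the other end, Ndufa3, also an accessory subunit, was higher after nephrectomy at 33.8 CPM (364 UMIs) and 49.1 CPM (644 UMIs), a ratio of 1.46 (1.28 to 1.66). Ndufv2, an iron-sulphur subunit of the NADH-oxidizing module, and Ndufs4, an accessory subunit whose loss causes complex I deficiency, were at 1.04 (0.948 to 1.13) and 1.03 (0.968 to 1.10) of sham, within counting error.

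Complex II, which oxidizes succinate and belongs to the citric acid cycle as well, differed from the other complexes. Its 4 genes together were at 404 CPM in sham and 397 CPM in nephrectomy proximal tubule-like nuclei, a ratio of 0.983 (0.944 to 1.02), and relative to ribosomal protein genes they were at 1.14 of the sham value (1.10 to 1.19). Sdha, the flavoprotein that binds succinate, was at 147 and 160 CPM (ratio 1.09, 1.03 to 1.17). Sdhc, a membrane anchor, was at 93.2 and 100 CPM (1.07, 0.989 to 1.17). Sdhb, the iron-sulphur subunit, and Sdhd, the other anchor, were lower, with ratios of 0.860 (0.796 to 0.930) and 0.758 (0.668 to 0.861). The 4 subunits of this complex thus did not share 1 direction.

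Complex III, which passes electrons from ubiquinol to cytochrome c, was at 896 CPM in sham and 748 CPM in nephrectomy for its 8 nuclear-encoded genes, a ratio of 0.835 (0.812 to 0.859). Of these 8 only Uqcrb was at least 1.5 times lower, a share near the 11.5% of all genes, at 105 and 61.8 CPM (0.590, 0.538 to 0.646). Uqcrfs1, the Rieske iron-sulphur protein, followed at 0.679 (0.619 to 0.746) and Uqcrh, the hinge protein, at 0.780 (0.725 to 0.840). The other end was held by Uqcrq at 0.926 (0.859 to 0.999), the core protein Uqcrc1 at 0.947 (0.859 to 1.04) and Uqcr11 at 1.03 (0.953 to 1.12). Relative to ribosomal protein genes the complex was at 0.972 (0.944 to 1.002), an interval that includes 1.

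Complex IV, cytochrome c oxidase, was at 1911 and 1456 CPM for its nuclear-encoded genes, a ratio of 0.762 (0.747 to 0.777). Among the genes with a Cox symbol, Cox5a was the lowest, at 201 CPM (2168 UMIs) in sham and 122 CPM (1600 UMIs) in nephrectomy, a ratio of 0.607 (0.569 to 0.648). Ndufa4, counted with complex I by its symbol, had a lower ratio. The sums of both complexes depend on that grouping and were not recomputed with Ndufa4 moved. Cox5b, Cox8a and Cox4i1 were at 0.694 (0.635 to 0.758), 0.699 (0.664 to 0.735) and 0.699 (0.665 to 0.735). The other gene with a Cox symbol at least 1.5 times lower was Cox6a2, the muscle form of Cox6a, with 12 and 9 UMIs. The 2 members at least 1.5 times higher were minor isoforms. Over all genes 11.5% were that much lower and 10.8% that much higher. Cox6b2, the testis form of Cox6b, was at 3.25 CPM (35 UMIs) in sham and 6.41 CPM (84 UMIs) in nephrectomy, a ratio of 1.97 (1.32 to 3.02), and Cox7a1, the heart and skeletal muscle form of Cox7a, was at 3.25 CPM (35 UMIs) and 5.19 CPM (68 UMIs), a ratio of 1.60 (1.05 to 2.48). Their common forms Cox6b1 and Cox7a2 were lower, at 0.795 (0.737 to 0.856) and 0.725 (0.674 to 0.780). In the proximal tubule-like class, 3.37% of nuclei from sham and 6.39% from nephrectomy had a UMI of Cox6b2, against 2.84% and 1.98% in thick ascending limb-like nuclei, whose median depths were 5673 and 6938 UMIs against 9540.5 and 10690 UMIs.

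Complex V, the ATP synthase, was at 2464 CPM in sham and 1987 CPM in nephrectomy, a ratio of 0.806 (0.793 to 0.820). Lowest were Atp5h (subunit d of the stalk) at 128 and 78.9 CPM (0.618, 0.569 to 0.670), Atp5o, which joins the stalk to the catalytic head, at 103 and 65.4 CPM (0.636, 0.581 to 0.696), and Atp5d of the rotor at 139 and 92.7 CPM (0.666, 0.617 to 0.719). Atp5k, subunit e, was the 1 member of this complex clearly above sham, at 71.1 and 87.9 CPM, a ratio of 1.24 (1.13 to 1.36). Atp5md and Atp5mpl, small membrane subunits like Atp5k, were both at 1.02 with intervals that include 1. Many members have processed pseudogenes, and the counting of reads shared with such copies is not given in the sources used here, so values of single members carry that uncertainty.

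**Figure D2:**
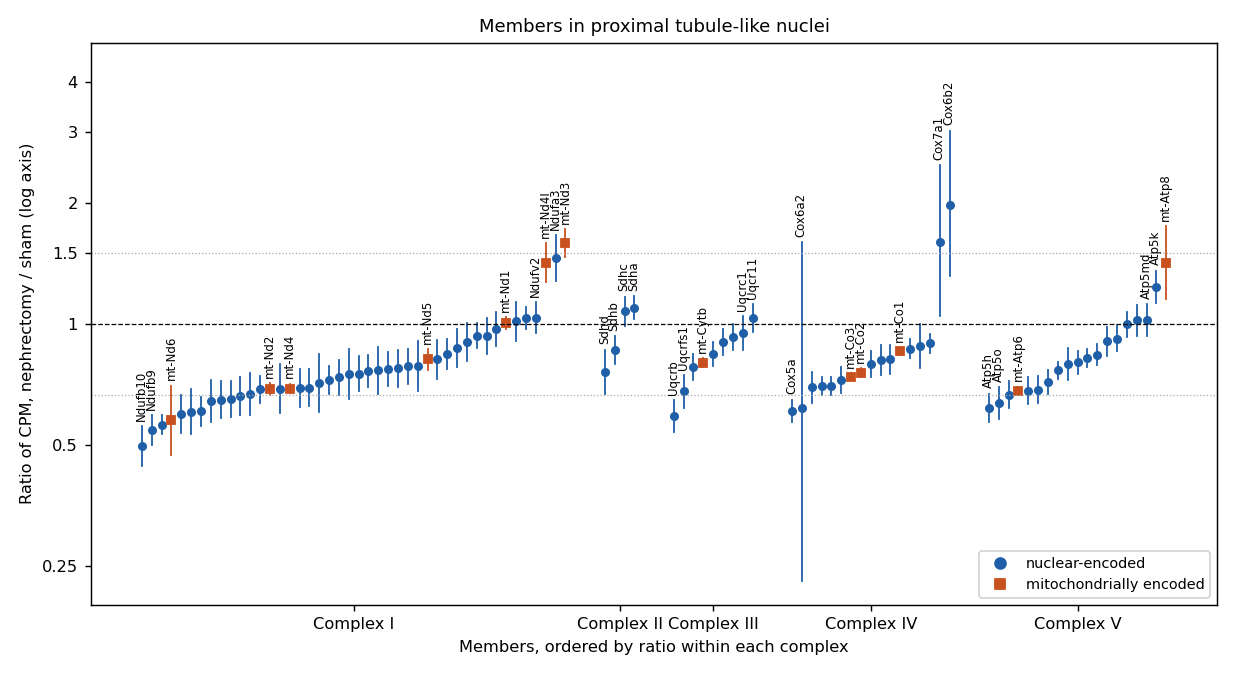
Each measured member in proximal tubule-like nuclei by complex, with the ratio of CPM in nephrectomy to sham on a log axis and 95% counting intervals as bars. Blue circles are nuclear-encoded and orange squares mitochondrially encoded members, dotted lines mark 1.5-fold either way, and most points lie between 0.5 and 1, with Ndufa3, Cox7a1, Cox6b2 and the short mitochondrial genes mt-Nd3, mt-Nd4l and mt-Atp8 above 1.

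The 13 mitochondrially encoded members did not share 1 direction. The 3 shortest genes, mt-Atp8 with 204 bases, mt-Nd4l with 297 and mt-Nd3 with 348, were higher in nephrectomy proximal tubule-like nuclei, with 13.7 and 19.4 CPM, 45.4 and 64.4 CPM, and 90.7 and 144 CPM in sham and nephrectomy. Their ratios were 1.42 (1.15 to 1.75), 1.42 (1.27 to 1.59) and 1.59 (1.47 to 1.72). Summed, the 3 were at 1.52 of sham (1.43 to 1.62), while the other 10 together were at 0.767 (0.760 to 0.774). Among those 10, mt-Nd1 was unchanged within counting error at 619 and 621 CPM (1.003, 0.971 to 1.04). Length did not order these 10. The shortest of them, mt-Nd6 with 519 bases, had the lowest ratio of all 13, below that of the longest, mt-Nd5 with 1824 bases. The oxidase subunits mt-Co1, mt-Co2 and mt-Co3, which form the catalytic core of complex IV, were at 0.855, 0.756 and 0.739, mt-Cytb of complex III at 0.800, and the complex I subunits mt-Nd5, mt-Nd4 and mt-Nd2 at 0.816, 0.690 and 0.688.

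The grouping by length was chosen after the values were seen. It set apart genes that lie side by side on 1 message. In mitochondria mt-Atp8 and mt-Atp6 share 1 messenger RNA, as do mt-Nd4l and mt-Nd4, yet mt-Atp6 was at 1412 and 962 CPM (ratio 0.681, 0.665 to 0.697) beside 1.42 for mt-Atp8, and mt-Nd4 was at 0.690 (0.671 to 0.709) beside 1.42 for mt-Nd4l. The annotated genes overlap by 43 bases in the first pair and by 7 bases in the second, and how reads in the overlaps were counted is not given in the sources used here. Summed, the 3 short genes were also above the other 10 in each of the other 9 classes, for example at 1.90 (1.44 to 2.53) beside 0.807 (0.777 to 0.838) in fibroblast-like nuclei and at 1.10 (0.990 to 1.23) beside 0.653 (0.643 to 0.664) in thick ascending limb-like nuclei. The cause was not tested.

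mt-Nd6 is the 1 member transcribed from the light strand. It was at 22.8 CPM (246 UMIs) in sham and 13.1 CPM (172 UMIs) in nephrectomy proximal tubule-like nuclei, a ratio of 0.575 (0.470 to 0.702), and the 12 heavy-strand members relative to it were at 1.35 of the sham value (1.11 to 1.65). In thick ascending limb-like nuclei the same relative value was 0.842 (0.581 to 1.22), so no shift between the strands was detectable there at this depth. Strand-specific counting is not stated, and mt-Nd6 overlaps mt-Nd5 by 14 bases.

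**Figure D3:**
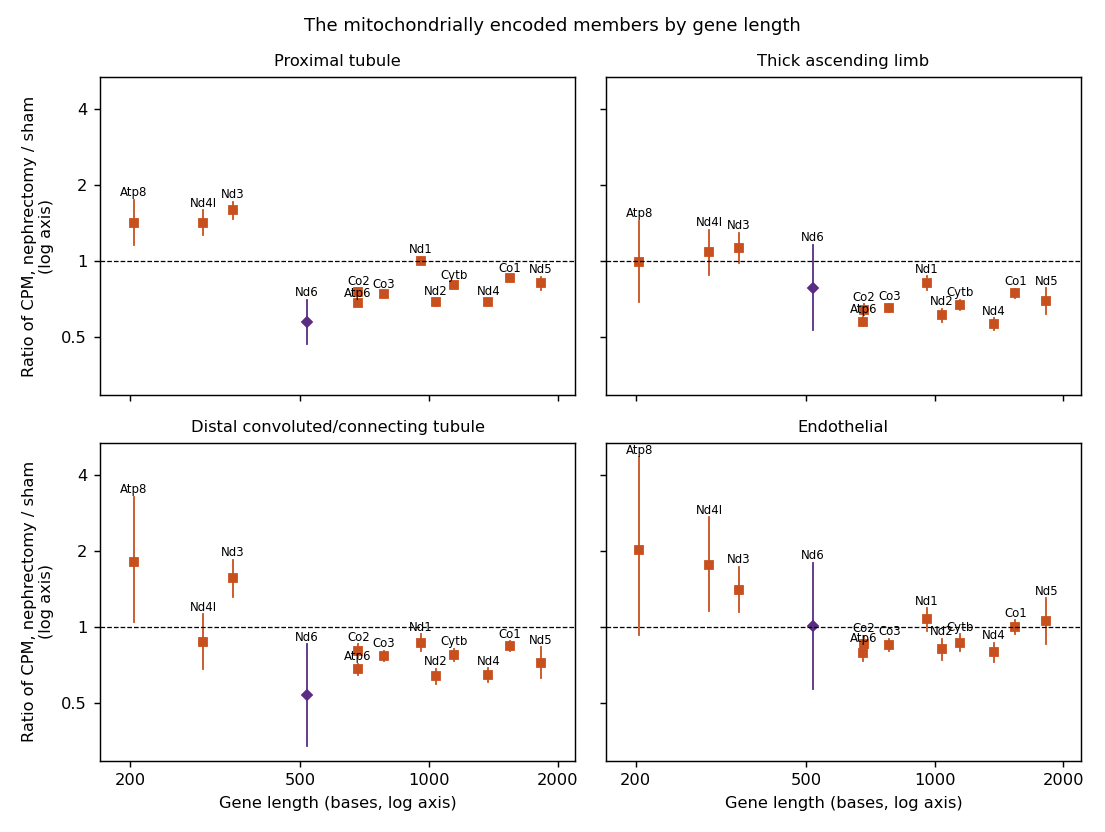
Ratio of CPM in nephrectomy to sham for each of the 13 mitochondrially encoded members against gene length, both on log axes, in the 4 classes with the most nuclei, with 95% counting intervals as bars. Squares are heavy-strand genes and the diamond is mt-Nd6, and in proximal tubule-like nuclei the 3 shortest genes lie at 1.42 to 1.59 while the others lie at or below 1.003.

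Outside the proximal tubule the thick ascending limb, the segment that dilutes the urine, had the highest level of nuclear-encoded members among the tubular classes and also a larger difference. These members were at 13259 CPM in sham and 9224 CPM in nephrectomy, a ratio of 0.696 (0.684 to 0.707), mitochondrially encoded members were at 14608 and 9652 CPM (0.661, 0.650 to 0.671), and ribosomal protein genes were at 0.736 (0.722 to 0.751). Nuclear-encoded members relative to ribosomal protein genes were at 0.945 of the sham value (0.921 to 0.969). Of 78 members measured 29 were at least 1.5 times lower and 0 that much higher, against 12.2% and 9.32% of all genes. Among those with at least 100 UMIs Uqcrfs1 was lowest, at 142 CPM (335 UMIs) and 64.8 CPM (182 UMIs), a ratio of 0.458 (0.380 to 0.550), and Ndufb8 next at 0.493 (0.422 to 0.576). Highest were Ndufa3 at 1.17 (0.925 to 1.48) and Ndufb1-ps, listed in the files with a pseudogene suffix, at 1.15 (0.943 to 1.40), both within counting error of sham.

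In distal convoluted or connecting tubule-like nuclei, nuclear-encoded members were at 9074 and 6842 CPM (0.754, 0.740 to 0.769) and mitochondrially encoded members at 9340 and 7105 CPM (0.761, 0.746 to 0.775). Ribosomal protein genes were lower to nearly the same extent, at 0.767 (0.750 to 0.786), and the relative values of 0.983 (0.953 to 1.01) and 0.991 (0.962 to 1.02) did not differ from 1 beyond counting error. Here 25 of 78 nuclear-encoded members were at least 1.5 times lower and 0 that much higher, against 15.8% and 8.19% of all genes. Among members with at least 100 UMIs Ndufb8 and Atp5g1, 1 of 3 genes for the same ring subunit of complex V, were lowest at 0.488 (0.403 to 0.592) and 0.494 (0.419 to 0.582). Ndufa3 at 1.21 (0.888 to 1.67) and Atp5k at 1.18 (0.947 to 1.48) were highest. Proximal tubule markers in these nuclei were at 2079 CPM in sham and 984 CPM in nephrectomy, and their part in the result was not tested.

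In endothelial-like nuclei ribosomal protein genes did not differ between the libraries beyond counting error, at 11275 and 11222 CPM (0.995, 0.967 to 1.02). Nuclear-encoded members were nonetheless lower, at 9320 and 7985 CPM (0.857, 0.829 to 0.885), and mitochondrially encoded members were at 15447 and 13633 CPM (0.883, 0.861 to 0.905). Of 77 nuclear-encoded members 15 were at least 1.5 times lower and 2 that much higher, against 12.2% and 9.97% of all genes. Among nuclear-encoded members with at least 100 UMIs Ndufb9 was lowest at 183 CPM (139 UMIs) and 97.5 CPM (92 UMIs), a ratio of 0.531 (0.404 to 0.696), and Ndufa2, an accessory subunit of complex I, was highest at 64.7 CPM (49 UMIs) and 105 CPM (99 UMIs), a ratio of 1.62 (1.14 to 2.33). With fewer UMIs, Sdhd was lower still at 0.511 (0.306 to 0.839), and the other member called higher, Ndufa3, was at 33.0 CPM (25 UMIs) and 57.2 CPM (54 UMIs), a ratio of 1.73 (1.06 to 2.91). These 2 were named after their values were seen, and Uqcr11 of complex III was at 1.42 (1.07 to 1.89). The summed proximal tubule markers in these nuclei were at 1830 and 2268 CPM, against 17912 and 19401 CPM in proximal tubule-like nuclei.

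Several members had similar ratios in these 4 classes, which come from the same pair of libraries and share their free RNA. Ndufa4 was at 0.561, 0.532, 0.569 and 0.616 in proximal tubule-, thick ascending limb-, distal convoluted or connecting tubule- and endothelial-like nuclei. In the same order Ndufb9 was at 0.543, 0.554, 0.610 and 0.531, and Atp5h at 0.618, 0.522, 0.647 and 0.659. Ndufa3 was above sham in each of the 4, at 1.46, 1.17, 1.21 and 1.73, with intervals that exclude 1 in proximal tubule- and endothelial-like nuclei.

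The 6 smaller classes rest on 35 to 96 nuclei per library. Nuclear-encoded members were at 0.837 (0.808 to 0.867) in intercalated-like nuclei, which secrete acid or base, at 0.827 (0.786 to 0.871) in fibroblast-like nuclei and at 0.790 (0.735 to 0.849) in podocyte-like nuclei of the filter. In principal-like nuclei of the collecting duct mitochondrially encoded members were at 10626 and 5597 CPM, a ratio of 0.527 (0.504 to 0.551), while nuclear-encoded members were at 7641 and 5405 CPM (0.707, 0.673 to 0.743). In podocyte-like nuclei the order was the opposite, with mitochondrially encoded members at 0.924 (0.886 to 0.964) and at 1.20 (1.11 to 1.30) relative to ribosomal protein genes. In podocyte- and principal-like nuclei, nuclear-encoded members were also above the sham value relative to ribosomal protein genes. That direction did not hold in every alternative. Leukocyte-like nuclei had the lowest ratio of nuclear-encoded members, 0.580 (0.551 to 0.609), and a mitochondrial ratio of 0.541 (0.520 to 0.563) close to that of principal-like nuclei. Their proximal tubule markers were at 10037 and 10572 CPM, more than in any other named class outside the proximal tubule, and the part of that RNA in the result was not tested.

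Single members in the smaller classes have wide intervals, and the lowest and highest below are among nuclear-encoded members with at least 100 UMIs. In principal-like nuclei Atp5f1 of the complex V stalk was at 170 CPM (65 UMIs) and 78.6 CPM (51 UMIs), a ratio of 0.461 (0.313 to 0.676), and Ndufa4 was at 0.530 (0.381 to 0.736), while Sdha was at 1.15 (0.835 to 1.59). In intercalated-like nuclei Ndufa6 was lowest at 0.546 (0.384 to 0.777) and Ndufa7 highest at 1.49 (0.939 to 2.44). Fibroblast-like nuclei ranged from Cox5a at 0.547 (0.375 to 0.793) to Atp5c1, the rotating shaft of complex V, at 1.36 (0.908 to 2.06). Podocyte-like nuclei had 2 nuclear-encoded members with at least 100 UMIs, Cox4i1 and the catalytic subunit Atp5b, at 0.665 (0.450 to 0.990) and 0.665 (0.446 to 1.001). In leukocyte-like nuclei Uqcrh was at 333 CPM (66 UMIs) and 100 CPM (40 UMIs), a ratio of 0.301 (0.198 to 0.452). The members named here as highest thus lay within counting error of sham.

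Descending thin limb-like nuclei, 35 in sham and 61 in nephrectomy, were the exception. Their mitochondrially encoded members were higher after nephrectomy, at 10041 and 13402 CPM, a ratio of 1.33 (1.27 to 1.40), their ribosomal protein genes were at 1.17 (1.11 to 1.23), and their nuclear-encoded members were at 0.836 (0.787 to 0.888). In the same nuclei proximal tubule markers were at 3115 CPM in sham and 6729 CPM in nephrectomy, a ratio of 2.16, whose part in this result was not tested. With at most 5% mitochondrial UMIs allowed per nucleus, the mitochondrial ratio of this class was 0.937.

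Levels within each library set the cell types apart. Per ribosomal protein UMI, nuclear-encoded members were at 1.49 in intercalated-, 1.49 in distal convoluted or connecting tubule-, 1.47 in thick ascending limb-, 1.16 in principal- and 1.12 in proximal tubule-like sham nuclei. The other 5 classes lay below 1, from 0.903 in leukocyte- and 0.895 in podocyte- to 0.865 in descending thin limb-, 0.858 in fibroblast- and 0.827 in endothelial-like nuclei. In nephrectomy the same 5 classes lay above 1, from 1.03 in proximal tubule- to 1.46 in distal convoluted or connecting tubule-like nuclei. The other 5, which include the descending thin limb of the tubule, lay between 0.620 and 0.915. Podocyte-like nuclei had the lowest nuclear-encoded level, 4437 CPM in sham and 3504 CPM in nephrectomy, yet the most mitochondrially encoded UMIs per nuclear-encoded UMI, 2.79 and 3.26, against 1.13 and 1.12 in proximal tubule-like nuclei. Order among the first 3 tubular classes was not the same in both libraries.

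The complex II value relative to ribosomal protein genes was above 1 beyond counting error in 5 of the 10 classes, all of the tubule or collecting duct, and differences between classes were not tested. A relative value above 1 is not by itself a higher share of RNA. Without the division, complex II in proximal tubule-like nuclei was within counting error of sham. It was lower than sham in thick ascending limb-like and distal convoluted or connecting tubule-like nuclei, where ribosomal protein genes were lower still. Relative to ribosomal protein genes, complex II was above its sham value in proximal tubule-like (1.14), thick ascending limb-like (1.15, 1.06 to 1.24), distal convoluted or connecting tubule-like (1.15, 1.056 to 1.253), intercalated-like (1.253, 1.07 to 1.47) and principal-like nuclei (1.40, 1.12 to 1.75). It was at 0.882 (0.748 to 1.04) in endothelial-, 0.794 (0.611 to 1.03) in fibroblast-, 0.811 (0.639 to 1.03) in leukocyte- and 0.981 (0.721 to 1.33) in podocyte-like nuclei, each within counting error of 1. In descending thin limb-like nuclei it was at 0.546 (0.416 to 0.715). Complex I was at 0.874 (0.858 to 0.891) in proximal tubule-like and 0.798 (0.749 to 0.850) in endothelial-like nuclei.

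**Figure D4:**
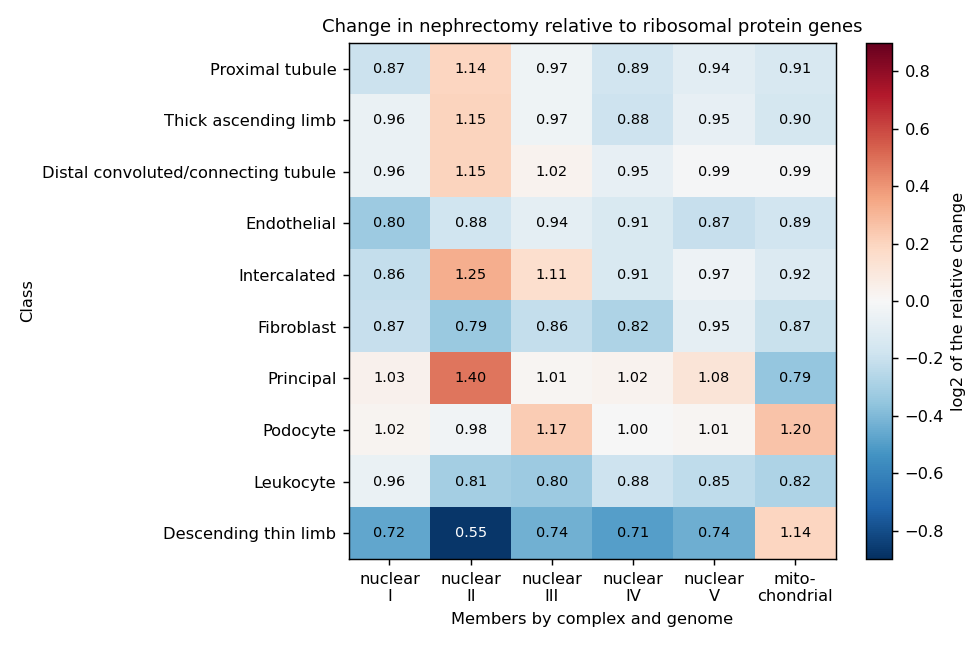
Relative change of the summed members of each complex in 10 classes: the ratio of nephrectomy to sham CPM divided by that of ribosomal protein genes, printed in each cell and coloured by its log2 (blue below, red above). Ndufa4 is counted with complex I by its symbol. The complex II column is red in the first 3 rows and in intercalated- and principal-like nuclei, with values of 1.14 to 1.40. Red is not by itself a higher share of RNA, since ribosomal protein genes were lower in the first 3 rows.

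The comparison with ribosomal protein genes was repeated among nuclei matched for their ribosomal protein share, in 4 groups cut at the quartiles of both libraries together. In proximal tubule-like nuclei, ribosomal protein genes then differed by little, with ratios of 0.968 to 0.995, and nuclear-encoded members stayed lower in each group: from the lowest to the highest ribosomal share they were at 0.905 (0.885 to 0.926), 0.886 (0.870 to 0.902), 0.880 (0.865 to 0.894) and 0.841 (0.826 to 0.857). Thick ascending limb-like nuclei gave 0.823 to 0.876 and distal convoluted or connecting tubule-like nuclei 0.869 to 0.924. Endothelial-like nuclei gave 0.885, 1.04 (0.965 to 1.12), 0.888 and 0.749, so the second group was within counting error of sham. Mitochondrially encoded members were at 1.02 (0.992 to 1.05), 0.997 (0.978 to 1.02), 1.00 (0.989 to 1.02) and 0.782 (0.771 to 0.794) in proximal tubule-like nuclei. Among these 4 groups, only the one with the highest ribosomal protein share had a mitochondrial share lower beyond counting error. In the same order the mitochondrial ratios were 1.21 (1.14 to 1.27), 0.833 (0.804 to 0.863), 1.01 (0.979 to 1.03) and 0.864 (0.839 to 0.890) in thick ascending limb-like nuclei, and 1.31, 1.16, 1.20 and 0.839 in distal convoluted or connecting tubule-like nuclei, with intervals that exclude 1 in each group of the latter. At matched ribosomal share the direction of the mitochondrial ratio was therefore not the same in each group of these classes, unlike the ratios of 0.661 and 0.761 over all their nuclei. Endothelial-like nuclei had mitochondrial ratios of 0.863 to 0.943.

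**Figure D5:**
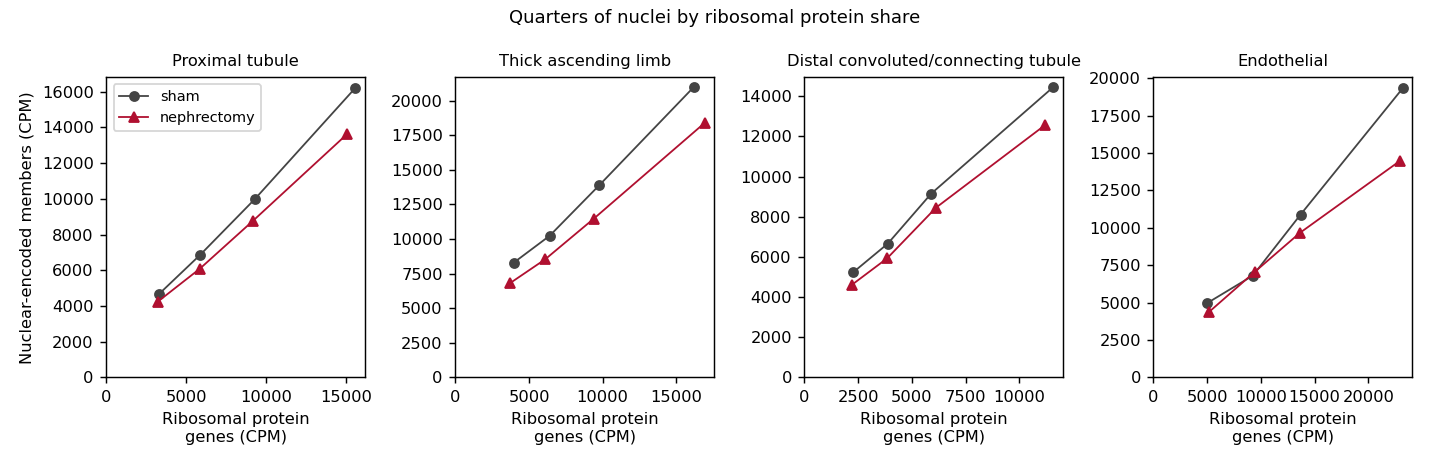
Summed CPM of nuclear-encoded members against that of ribosomal protein genes in 4 groups of nuclei by ribosomal protein share, for 4 classes, with sham as circles and nephrectomy as triangles. At matched ribosomal levels the nephrectomy points lie below the sham points in the 3 tubular classes. In 1 of the 4 pairs of endothelial-like groups the order is reversed, within counting error.

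Within the proximal tubule the size of the difference varied by cluster. Of the 5 clusters with at least 50 nuclei in each library, 1 with Higd1c, Bcat1 and Cyp7b1 among its leading genes had the lowest ratios, 0.722 (0.707 to 0.738) for nuclear-encoded and 0.609 (0.596 to 0.621) for mitochondrially encoded members. The cluster with Dpys, Cyp4a14 and Pdk4 among its leading genes, with 57 sham and 304 nephrectomy nuclei, had nuclear-encoded members at 0.921 (0.894 to 0.948) and mitochondrially encoded members at 1.24 (1.21 to 1.28). Relative to ribosomal protein genes, nuclear-encoded members were at 0.848 to 0.945 in the 5 clusters. Mitochondrially encoded members relative to ribosomal protein genes went both ways, at 0.740 and 1.15 in the 2 clusters just described and at 0.861, 0.996 and 1.03 in the other 3.

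Genes that serve the pathway without being subunits were read in proximal tubule-like nuclei against the same background, 11.5% of all genes at least 1.5 times lower and 10.8% at least 1.5 times higher. Of 43 assembly factors, which build the complexes, 8 were at least 1.5 times lower and 1 at least 1.5 times higher, with a median log2 ratio of −0.21. Sdhaf1, needed to assemble complex II, was at 22.1 and 10.4 CPM (0.473, 0.381 to 0.587) and Ndufaf4 of complex I at 89.5 and 43.8 CPM (0.489, 0.440 to 0.543), while Nubpl, which delivers iron-sulphur clusters to complex I, was at 37.0 and 59.6 CPM (1.61, 1.43 to 1.82). Of 20 genes for electron carriers, the making of ubiquinone and exchange across the mitochondrial membranes, 2 were that much lower and 1 higher. These shares were near or under those of all genes. Cycs, cytochrome c itself, was at 114 CPM (1234 UMIs) in sham and 53.3 CPM (699 UMIs) in nephrectomy, a ratio of 0.466 (0.424 to 0.512), whereas Etfdh, which feeds electrons from fatty acid oxidation to ubiquinone, was at 54.7 and 87.3 CPM (ratio 1.60, 1.44 to 1.77).

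Of 14 citric acid cycle genes measured 0 were at least 1.5 times lower or higher, where the background of 11.5% and 10.8% would give few in a list of this size, with a median log2 ratio of −0.11, from Dld at 0.708 (0.638 to 0.786) to Suclg2, a subunit of succinyl-CoA ligase, at 1.35 (1.29 to 1.41). Among 25 measured genes for mitochondrial gene expression and the regulators of mitochondrial biogenesis, 2 were at least 1.5 times higher, a share below the 10.8% of all genes, and 0 that much lower, with a median of 0.09 against 0.02 over all genes. Ppara, the nuclear receptor for fatty acid oxidation genes, was at 641 CPM (6913 UMIs) in sham and 1286 CPM (16857 UMIs) in nephrectomy, a ratio of 2.01 (1.95 to 2.06), and Esrrb was at 1.56 (1.23 to 1.99). Slirp, which stabilizes mitochondrial messages, was at 0.750 (0.611 to 0.919).

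Gene span, the genomic length with introns, moved with the ratio over all genes. Among the members the step between bins was smaller and the correlation weak. Over all genes measured in proximal tubule-like nuclei the median log2 ratio was −0.21 for spans under 10 kb, 0.07 for 10 to 100 kb and 0.15 above 100 kb. Nuclear-encoded members were at −0.40 (57 genes) and −0.23 (22 genes) in the first 2 of these bins, below all genes of the same span in both. Across 79 of these members the correlation of the ratio with span was weak (Pearson −0.064, Spearman 0.101). In thick ascending limb-like nuclei it was 0.232 and 0.196 across 77 members. The median span was 7.21 kb for nuclear-encoded members and 3.24 kb for ribosomal protein genes, against 24.4 kb for the citric acid cycle list and 26.6 kb for the regulators. Sdha spans 28027 bases, Cycs 3.98 kb and Ppara 67.8 kb. The part of span in the differences between these lists was not tested.

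Tissue-restricted isoforms were rare. Cox4i2, a form of Cox4 known from lung and hypoxia, had 6 UMIs in 27 sham pericyte-, mesangial- or smooth muscle-like nuclei (45.2 CPM) and 0 in 21 nephrectomy nuclei. The latter allows a share of nuclei with a UMI of up to about 14.3%, an approximate limit of 3 divided by the number of nuclei. All proximal tubule-like nuclei had 5 and 6 UMIs of Cox4i2 (0.464 and 0.458 CPM). Ndufa4l2, the hypoxia-induced relative of Ndufa4, was at 30.8 CPM (10 UMIs) and 6.37 CPM (3 UMIs) in fibroblast-like nuclei. Among the 10 classes Cox6b2 was highest in fibroblast-like nuclei, at 46.2 and 31.9 CPM with 15 UMIs in each library, a ratio of 0.689 (0.314 to 1.51). Cox8c, another testis form, had 0 UMIs in proximal tubule-like nuclei of both libraries. By the same approximation this allows a share of nuclei with a UMI of up to about 0.307% in sham and 0.274% in nephrectomy.

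Promoter sequences are shown for 4 members because most nuclear-encoded subunits were lower together while a few were not: Ndufb10 had the lowest ratio in proximal tubule-like nuclei, Ndufa8 the lowest among members with a match to the NRF1 motif, and Ndufa3 and Atp5k were above sham. RefSeq promoters (GRCm38.p6, 250 bases before to 50 after the gene start) were found for 69 of the 85 nuclear-encoded members. Capitals mark exact matches on either strand to GCGCATGC for NRF1, a factor known to drive many respiratory genes, CCGGAAG for ETS factors such as GABP, AAGGTCA for the estrogen-related receptors and AAGATGG for YY1. Ndufb10 (chr17:24724374-24724673, minus strand) held 0 matches, Ndufa8 (chr2:36049289-36049588, minus strand) 1 to NRF1, Ndufa3 (chr7:3617123-3617422, plus strand) 1 to YY1, and Atp5k (chr5:108434350-108434649, minus strand) 1 to ETS, 1 to the estrogen-related receptors and 2 overlapping ones to NRF1, 1 on each strand.
Ndufb10: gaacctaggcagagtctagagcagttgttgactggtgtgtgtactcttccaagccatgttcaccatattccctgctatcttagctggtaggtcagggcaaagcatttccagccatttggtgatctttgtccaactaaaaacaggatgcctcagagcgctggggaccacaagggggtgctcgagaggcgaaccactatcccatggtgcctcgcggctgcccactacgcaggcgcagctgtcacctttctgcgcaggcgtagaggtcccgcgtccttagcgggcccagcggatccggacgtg
Ndufa8: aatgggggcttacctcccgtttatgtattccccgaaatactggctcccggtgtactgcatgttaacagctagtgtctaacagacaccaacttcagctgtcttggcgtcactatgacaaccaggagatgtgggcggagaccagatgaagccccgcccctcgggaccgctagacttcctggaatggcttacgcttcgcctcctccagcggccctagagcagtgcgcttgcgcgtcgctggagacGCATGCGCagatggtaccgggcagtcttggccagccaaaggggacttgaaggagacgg
Ndufa3: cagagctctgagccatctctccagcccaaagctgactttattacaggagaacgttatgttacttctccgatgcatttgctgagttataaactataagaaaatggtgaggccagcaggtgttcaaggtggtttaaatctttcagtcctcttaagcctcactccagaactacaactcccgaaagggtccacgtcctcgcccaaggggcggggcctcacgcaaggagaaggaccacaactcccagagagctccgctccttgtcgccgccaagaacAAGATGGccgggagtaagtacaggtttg
Atp5k: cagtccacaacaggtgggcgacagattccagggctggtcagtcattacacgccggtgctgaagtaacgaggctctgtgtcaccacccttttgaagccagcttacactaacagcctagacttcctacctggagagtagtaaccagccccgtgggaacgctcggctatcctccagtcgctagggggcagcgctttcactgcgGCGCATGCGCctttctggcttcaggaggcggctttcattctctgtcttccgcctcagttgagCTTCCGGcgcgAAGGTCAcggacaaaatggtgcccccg

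The NRF1 letters were present in 10 of 69 member promoters, 14.5%, against 2.80% of all 27025 promoters of the same length and 3.08% of those of ribosomal protein genes. For ETS the shares were 23.2% of members, 9.12% of all and 35.4% of ribosomal protein promoters. For the estrogen-related receptors they were 11.6%, 4.66% and 6.15%, and for YY1 14.5%, 6.48% and 13.8%. Members were richer in G and C than all promoters, with medians of 57.3% and 52.7%. The 10 members with an NRF1 match had a median log2 ratio of −0.28 in proximal tubule-like nuclei and the 57 measured members without one −0.39, and Ndufa8 at 0.604 (0.531 to 0.687) and Atp5k at 1.24 both hold a match. With and without a match the medians were −0.32 and −0.39 for ETS and −0.27 and −0.39 for the estrogen-related receptors. For YY1 the order was the opposite, at −0.40 and −0.37. Cox6b2 and Cox7a1, the members with the highest ratios, hold no match to any of these factors. These matches describe letters in a window and not binding.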

How the data were processed

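The authors deposited UMI counts per gene and barcode, made with Cell Ranger on mm10, per the file headers and the submitters' processing notes (version 7.0.1 in the header, 7.1.0 in the notes). Whether intronic reads were counted is not given in the sources used here. The deposited features and barcodes files name genes and nuclei.

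Barcodes under 200 genes or over 10% mitochondrial UMIs were dropped, 109 in sham and 112 in nephrectomy. Scrublet's own threshold called 0 doublets and was not usable, so the 3% highest scores per library and clusters with at least 20% of them were removed, 108 and 110 nuclei. Libraries were clustered together without member, mitochondrial, ribosomal or pathway-list genes (scanpy 1.11.5, 2000 variable genes, 30 components, 15 neighbours, Leiden resolution 1) into 25 clusters. Names needed at least 3 of the fixed markers at least 2-fold over the 25th percentile of clusters and in at least 5% of nuclei. Naming and merging rules were revised after seeing the data. Rebuilt names may differ from the study's.

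UMIs were summed per class and divided by the class total (CPM). Ratios have exact conditional binomial intervals, and relative values approximate log-scale intervals. Counts of members used at least 20 UMIs over both libraries and 1.5-fold, and counts under 3 were set to 3. S6 kinase genes, Rps19bp1 and pseudogenes were left out of the ribosomal list. The calculation was tested on simulated data. Positions are from GENCODE M21 (GRCm38), in which all 98 members were found. edgeR 4.0.16 gave TMM factors for 1 alternative. Named members had at least 100 UMIs in the class and were the 3 lowest and 3 highest per complex (2 in other classes and pathway lists), plus mitochondrial members and isoform pairs. Members and lists were chosen with earlier results of these data known. With 1 library per group no p-value is given.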

Additional observations from a re-analysis of the deposited data

Results flagged for a closer look

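In descending thin limb-like nuclei the mitochondrially encoded members were higher in the nephrectomy library, with a summed ratio of 1.33, while each of the other 9 named classes had a ratio below 1. Neither side held in every alternative: with at most 5% mitochondrial UMIs the ratio of descending thin limb-like nuclei was 0.937, intercalated-like nuclei were at 1.09 with equal weight per nucleus and 1.06 with thinning, and podocyte-like nuclei were at 1.05 with equal weight. The difference between classes was not tested, since each class has 1 library per group. The class held 35 sham and 61 nephrectomy nuclei, and its proximal tubule markers were 2.16 times as high in nephrectomy.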

How the results depend on the processing

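No paired analysis was possible because each group has 1 library, and no library could be left out. In proximal tubule-like nuclei the nuclear-encoded, mitochondrially encoded and ribosomal protein ratios (0.789, 0.779 and 0.859) stayed below 1 in every alternative. They were 0.833, 0.865 and 0.912 at Leiden resolution 0.5, 0.804, 0.812 and 0.876 at resolution 2, 0.780, 0.770 and 0.846 without doublet removal, 0.800, 0.804 and 0.870 with equal weight per nucleus, 0.798, 0.822 and 0.878 with nuclei thinned to 1000 UMIs, 0.780, 0.770 and 0.850 with TMM scaling, and 0.877, 0.929 and 0.960 over 5 shared clusters with equal weight. Adding 2 low-depth unnamed clusters, an alternative chosen after seeing the data, gave 0.762, 0.742 and 0.839. The mitochondrial ratio was 0.804 with at most 5% mitochondrial UMIs and 0.794 with no such limit. The literal ribosomal pattern, with 97 genes, gave 0.875 for ribosomal protein genes.

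Relative to ribosomal protein genes, nuclear-encoded members were at 0.901 with the literal pattern and within 0.901 to 0.922 in all 10 alternatives. Mitochondrially encoded members, at 0.906, were at 0.949 and 0.926 at resolutions 0.5 and 2, 0.929 and 0.920 with the 5% and no mitochondrial limit, 0.890 with the literal pattern, 0.924 with equal weight, 0.936 thinned, 0.968 over shared clusters and 0.884 with the low-depth clusters. The median log2 ratio of −0.36 was −0.21 over shared clusters. The count of 16 members lower was 10 at resolution 0.5, 5 over shared clusters and 25 with the low-depth clusters. It was 45 at a fold limit below the one used for the 16, where more of all genes are called as well. The 2 higher were 1 after thinning. The causes of these changes were not tested. No share of all genes is given for these alternatives. Their counts can therefore not be read against the share given for the main count.

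In the other 9 classes 8 of 222 alternatives turned the direction. The mitochondrial ratio was 0.937 in descending thin limb-like nuclei with at most 5% mitochondrial UMIs, 1.09 with equal weight and 1.06 thinned in intercalated-like nuclei, and 1.05 with equal weight in podocyte-like nuclei. Nuclear-encoded members relative to ribosomal protein genes were above the sham value in podocyte- and principal-like nuclei in the main setting. In podocyte-like nuclei they were at 0.985 without doublet removal, 0.989 with the literal pattern and 0.884 thinned. In principal-like nuclei they were at 0.996 with equal weight. Leukocyte-like and descending thin limb-like nuclei gave no value at resolution 0.5, nor did the former at the 5% limit or the latter with no limit. With 1 library per group, counting error is the sole error that could be given, and classes of 35 to 96 nuclei leave single members imprecise.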
